A study of Mus musculus with 8 samples.

Results

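Macrophages of the mouse colon were described from single-cell RNA sequencing of distal mucosa, with 8 animals aged 8 weeks. The KO-labelled group comprised 4 mice (mice 2, 3, 6 and 7) of genotype Vil1::Cre;Spry2-f/f, in which Cre driven by the villin promoter acts on a floxed Spry2 gene in the intestinal epithelium. The WT-labelled group comprised 4 littermates (mice 1, 4, 5 and 8) of genotype Spry2-f/f without Cre, so the floxed allele was carried by both groups. Villin-driven Cre is known for its activity in epithelial cells and not in macrophages; neither sex nor strain background is stated. The macrophages were the cells that the authors' deposited table places in its class Macrophages and does not name as doublets. They numbered 659 of 53080 cells, 339 from KO-labelled and 320 from WT-labelled mice. They form 1 of the authors' clusters, with no subtype names. Below, the word macrophages means every cell of this class. By the sub-clusters given below 37.0% of them were dendritic cell-like, so the comparisons of the groups are of a mixed class. Each mouse is 1 replicate and gave 1 library.

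Macrophages of the gut mucosa engulf bacteria and dying cells, present antigen on MHC class II and are renewed largely from blood monocytes that enter through the receptor Ccr2 and mature under the growth factor receptor Csf1r. Mature cells make the complement component C1q, whose chains C1qa, C1qb and C1qc assemble into 1 protein, and in the lamina propria many carry the fractalkine receptor Cx3cr1. A separate long-lived population with Timd4, Lyve1 or Folr2 lies mostly around vessels and nerves. Dendritic cells share the tissue and the MHC class II genes with macrophages. Spry2, the gene targeted in the epithelium, encodes Sprouty2, which dampens signals from growth factor receptors.

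The libraries held 17037906 to 37300028 unique molecular identifiers (UMIs) in all cells, and the macrophages of a mouse 29629 to 1532391. In KO-labelled mice there were 57, 47, 106 and 129 macrophages (mice 2, 3, 6 and 7), against 29, 78, 206 and 7 in WT-labelled mice (mice 1, 4, 5 and 8). With 7 cells, mouse 8 entered the cell shares but not the gene comparisons, which used the 7 mice with 20 or more macrophages. No barcode was shared between the macrophages of different mice (0), and 8 macrophage barcodes also occurred in another library among other cells. Spry2 in epithelial cells was at 10.4, 13.3, 15.7 and 49.3 CPM (the UMIs of a gene per 1000000 UMIs of the cell set) in KO-labelled mice, against 11.2, 17.6, 27.7 and 37.6 CPM in WT-labelled mice (22.2 ± 18.2 and 23.5 ± 11.6 CPM, SD, n = 4 each; exact permutation test, two-sided, p = 0.857). The targeted gene did not separate the groups, and a 3′ tag lying outside the deleted part would not show the deletion; the groups are therefore called by their labels. In macrophages Spry2 had 4 UMIs in all, 3 in KO-labelled mouse 7 and 1 in WT-labelled mouse 4.

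The label was checked against macrophage genes, as a description without a test because the class is a cluster of the same cells. C1qa, the first chain of C1q, was at 1865, 779, 677 and 1476 CPM in macrophages of KO-labelled mice 2, 3, 6 and 7, against 184, 1201 and 1546 CPM in WT-labelled mice 1, 4 and 5. Mouse 1 was the lowest, and the groups overlapped. The highest level of C1qa in any other class was 2.12 CPM in B cells, against 1104 ± 585 CPM in macrophages (SD, n = 7). C1qb and C1qc had 1067 ± 578 and 755 ± 427 CPM in macrophages and at most 2.77 and 1.39 CPM elsewhere. The 25 genes that stood out most in the class also included the platelet factor gene Pf4 (500 ± 383 CPM), the transglutaminase gene F13a1 (230 ± 120), the chemokine gene Ccl9 (301 ± 127) and Cx3cr1 (186 ± 102), with other classes at 2.67, 0.321, 3.92 and 3.42 CPM at most. The lectin genes Mgl2 and Clec10a, the lipid-sensing receptor gene Trem2 and the Fc receptor gene Fcgr1 were among them as well. Lyz2, the lysozyme of myeloid cells, reached 8564 ± 1975 CPM in macrophages and 1249 CPM in the class Neutrophils.

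The defining markers were not in every cell. C1qa had a UMI in 35.1% of macrophages, C1qb in 37.3%, the macrophage surface gene Adgre1 (F4/80) in 39.3% and Csf1r in 57.4%, whereas Lyz2 had one in 85.0%. At a depth of 500 UMIs per cell, these shares were 27.6%, 25.6%, 7.13%, 18.4% and 66.9%. B cells, which should lack these genes, had a C1qa UMI in 0.143% of cells (0.0408% at 500 UMIs), with median depths of 5352 UMIs in macrophages and 1994 in B cells. C1q was thus detected in a minority of the class, and its cells were described further by sub-cluster.

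The chains of C1q are encoded side by side on the minus strand of chromosome 4, in a span of 18675 bases (GRCm38, GENCODE M21). C1qb lies at chr4:136880129-136886187, C1qc at chr4:136889804-136893065 and C1qa at chr4:136895917-136898803. The promoters are printed because the genes share their locus and, as given below, their sub-clusters. The windows run from 250 bases before to 50 bases after the RefSeq start (GRCm38.p6), at chr4:136892865-136893164 for C1qc and chr4:136886151-136886450 for C1qb, both on the minus strand and printed 5′ to 3′. Capitals mark the letters GAGGAA, or TTCCTC where they lie on the other strand; GAGGAA contains the GGAA core that PU.1, the master factor of myeloid cells encoded by Spi1, shares with other ETS factors.
C1qc: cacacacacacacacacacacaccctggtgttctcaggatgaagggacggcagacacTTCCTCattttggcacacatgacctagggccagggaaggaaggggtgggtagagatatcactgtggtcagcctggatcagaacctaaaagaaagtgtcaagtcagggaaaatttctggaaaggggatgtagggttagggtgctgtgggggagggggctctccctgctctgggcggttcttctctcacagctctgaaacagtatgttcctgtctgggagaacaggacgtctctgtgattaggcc
C1qb: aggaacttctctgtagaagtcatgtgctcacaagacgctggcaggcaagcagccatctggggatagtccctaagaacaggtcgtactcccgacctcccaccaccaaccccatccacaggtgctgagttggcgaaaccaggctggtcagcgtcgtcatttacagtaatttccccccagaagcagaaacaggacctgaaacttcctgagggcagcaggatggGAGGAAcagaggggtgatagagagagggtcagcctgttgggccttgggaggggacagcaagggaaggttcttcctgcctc
The letters began 193 bases before the RefSeq start in C1qc and 30 bases before it in C1qb. GENCODE M21 places the start of C1qc at base 136893065, upstream of the RefSeq start. Much of the printed C1qc window thus lies inside the gene as GENCODE gives it, and the distance holds for the RefSeq start only. Of 32851 promoter windows, 28.3% held them on either strand, so their presence is a description and not a binding site. Spi1 was at 384 ± 79.2 CPM in macrophages (SD, n = 7).

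Sub-clustering without immunoglobulin genes split the 659 cells into 8 groups, which are described by their leading genes with no test. Levels below are CPM over all cells of a sub-cluster. Sub-clusters 4 and 5, with 169 cells or 25.6% of the class, held the C1q genes: 89.6% of the C1qa UMIs, 83.9% of the C1qb UMIs and 63.6% of the Csf1r UMIs of the class lay in them, and 97.0% of their cells had C1qa. In the dendritic cell-like sub-clusters 2 and 3 the share with C1qa was 13.1%, and in the monocyte-like sub-cluster 1 it was 9.80%. Of the cells of sub-clusters 6, 7 and 8 together, 21.5% had C1qa and 30.1% had C1qb. In sub-clusters 6 and 8 without 7 these shares were 12.9% and 14.5%.

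Sub-cluster 4 (89 cells) was resident macrophage-like, with 12 of 12 resident markers and 10 of 12 macrophage markers raised. Its leading genes were the chemokine genes Ccl8 and Ccl7, the folate receptor gene Folr2 (1017 CPM against 8.77 in the other cells of the class), the hyaluronan receptor gene Lyve1 (714 against 3.56), Pf4 (4996 against 135), the haemoglobin scavenger receptor gene Cd163 (484 against 6.58) and Gas6 (898 against 19.7), which bridges dying cells to the receptor encoded by Mertk. In the 3 mice with 10 or more such cells, Folr2 lay between 943 and 998 CPM and Lyve1 between 628 and 672 CPM. Timd4, a receptor for dying cells, was low at 62.1 CPM. The MHC class II genes of this sub-cluster summed to 16573 CPM, and mitochondrial UMIs made up 10.5% of its total, above the 4.17% to 5.99% of the other sub-clusters.

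Sub-cluster 5 (80 cells) was macrophage-like, with 11 of 12 macrophage markers and 3 of 12 resident markers. C1qa was at 4692 CPM, against 4735 CPM in sub-cluster 4, but the genes beside it differed. Sub-cluster 5 was led by H2-M2, the collagenase gene Mmp13, the phosphatase gene Acp5, Ms4a7 (1249 CPM), the DNase gene Dnase1l3 (691) and the lipid carrier gene Apoe (19290 against 2443 in the other cells of the class). Cx3cr1 was at 857 CPM there and at 510 CPM in sub-cluster 4. The MHC class II genes summed to 61865 CPM, the highest of the 8 sub-clusters, while Lyve1 (12.1 CPM) and Cd163 (6.94 CPM) were low.

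Sub-cluster 1 (153 cells) was monocyte-like, with 6 of 7 monocyte markers. Its leading genes included Chil3, which had 342 CPM there and 0 UMIs in the other sub-clusters, the matrix glycoprotein gene Thbs1 (1456 against 36.5 in the other cells), the haptoglobin gene Hp, the lectin gene Clec4e, Ly6c2 (458 against 47.2), Plac8 (2981 against 370) and the transcription factor gene Cebpb (2878 against 382). Ccr2 was at 1050 CPM, Csf1r at 576 and C1qa at 191. The inflammatory cytokine and inflammasome genes summed to 6945 CPM, with the interleukin gene Il1b at 5869. The interferon response genes summed to 4613 CPM, of which Ifitm3 made up 3814.

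Sub-clusters 2 (140 cells) and 3 (104 cells) were dendritic cell-like and held 37.0% of the class. Sub-cluster 2 was led by the chemokine receptor gene Xcr1 (294 against 17.7 CPM), Clec9a (180 against 13.8), a receptor for dead cells, and the integrin gene Itgae (212 against 19.7), with Tlr3, Cst3 (20562 against 3754) and the transcription factor gene Irf8 (1431), a set known from the cross-presenting dendritic cells called type 1. Csf1r was at 15.2 CPM and Cx3cr1 at 8.09. Sub-cluster 3 was led by Cd209a (423 against 25.4), Tnfsf9, the decoy receptor gene Il1r2, Mgl2 (656 against 100) and Traf1, with Flt3, the growth factor receptor of dendritic cells, at 140 CPM. Cd209a and Mgl2 are known from dendritic cells called type 2. The MHC class II sums were 51383 and 51787 CPM.

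The other 3 sub-clusters were not named. Sub-cluster 6 (39 cells) was led by genes of fibroblasts (Dcn 1139 CPM, Col3a1 976) and of cell division (Ube2c, Top2a 429, Birc5, Pclaf 499), and 6 of 6 fibroblast markers were raised. Dcn had a UMI in only 30.8% of its cells and Col3a1 in 28.2%, and Top2a in 53.8% and Pclaf in 56.4%. Sub-cluster 7 (31 cells) was led by the lipase gene Lpl (2996 against 29.0 CPM), the secreted factor gene Retnla (16453 against 270), Lyz1, the fibronectin gene Fn1 (6147 against 201) and the chemokine gene Ccl6 (3070 against 311), with Apoe at 14.1 CPM and Ccr2 at 1036. Lpl, Retnla, Fn1 and Ccl6 each had a UMI in 100% of its cells. Sub-cluster 8 (23 cells) carried 6 of 6 plasmacytoid dendritic cell markers (Siglech 1031 CPM, Bst2 1478, Tcf4 1046) together with 5 of 6 T cell markers (Trbc2, Cd3d 209). Siglech had a UMI in 78.3% of its cells and Cd3d in 30.4%.

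**Figure D1:**
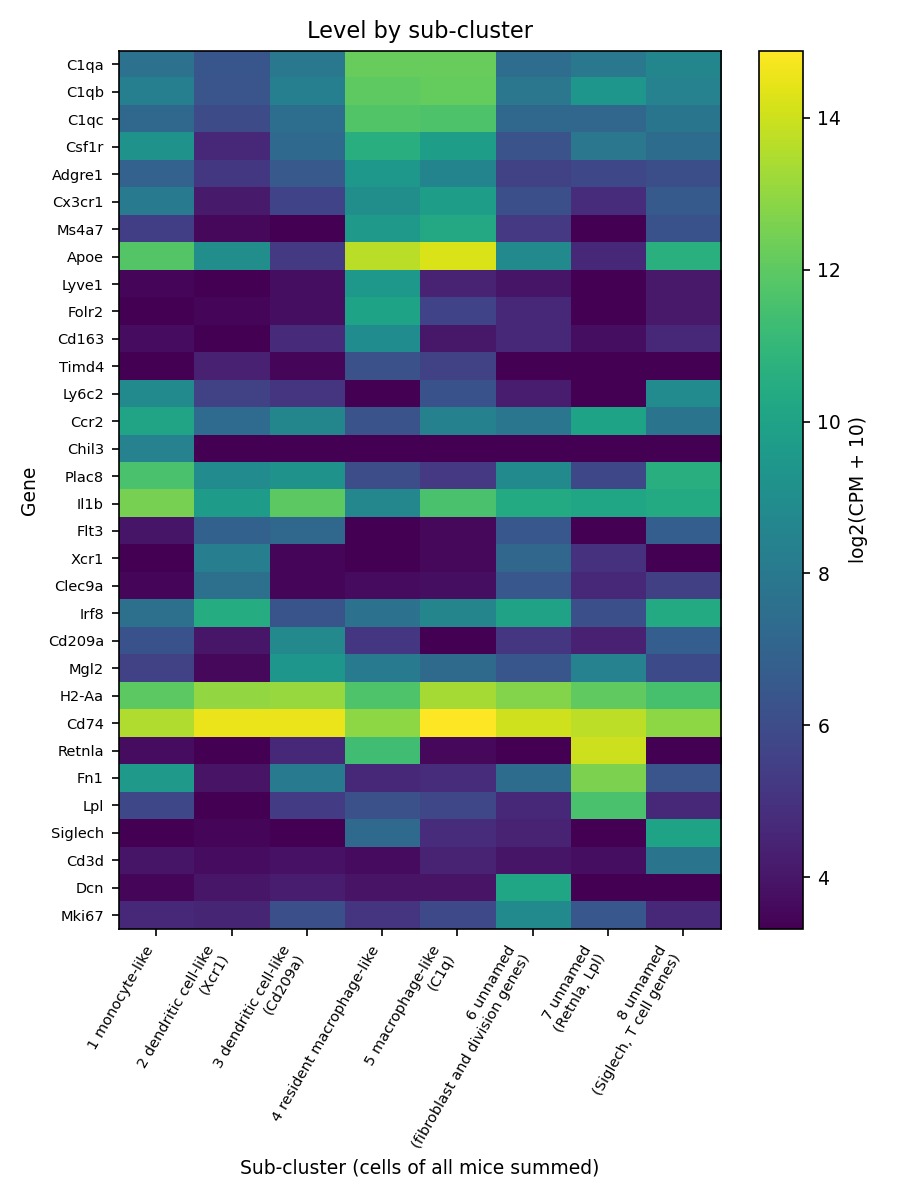
Levels of selected genes (rows) in the 8 sub-clusters of the macrophage class (columns), as log2(CPM + 10) of the UMIs summed over the cells of all mice. C1qa, C1qb and C1qc are brightest in sub-clusters 4 and 5. Lyve1, Folr2 and Cd163 are bright in 4, Chil3 in 1, Xcr1 in 2, Cd209a in 3 and Retnla in 7 and 4. MHC class II genes are bright throughout.

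Other macrophage functions differed in level between the sub-clusters in the same descriptive sense. The 16 lysosome genes summed to 16814 and 17240 CPM in sub-clusters 4 and 5, against 6089 and 6498 in 2 and 3, with the protease gene Ctsb at 3302 and 2235 CPM, against 182 and 277. The 12 scavenger and apoptotic cell receptor genes summed to 5672 CPM in sub-cluster 4 and 1338 in 5, and at most 651 in the others; Mrc1, the mannose receptor gene, was at 1907 CPM in sub-cluster 4 and at most 371 elsewhere. The lipid handling genes summed to 21702 CPM in sub-cluster 5 and 15577 in 4, mostly through Apoe. The iron and haem genes summed to 17616 and 18226 CPM in sub-clusters 4 and 5; Hmox1, which breaks down haem, was at 492 and 101 CPM there and at 152 in sub-cluster 7, and the iron exporter gene Slc40a1 at 106 and 20.8. Chemokine genes were highest in sub-clusters 7 (8354 CPM, with Cxcl2 at 3073 and Ccl6 at 3070) and 4 (8096 CPM, with Ccl2 at 1534). The growth factor gene Igf1 was at 435 CPM in sub-cluster 4 and at most 45.1 elsewhere. Il10, the cytokine that restrains gut macrophages, was scarce, at 49.2 and 13.9 CPM in sub-clusters 4 and 5, 64.9 CPM in sub-cluster 8 and 7.39 ± 8.79 CPM over 7 mice. Immediate early genes, which dissociation can induce, summed to 21950 CPM in sub-cluster 4, against 7947 to 16386 in the others.

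Markers of granulocytes were scarce. Over all cells of the class S100a9 was at 0 CPM and S100a8 at 0.495, against 26681 and 22758 CPM in the authors' class Neutrophils (32 cells). Of 8 neutrophil markers 6 had a UMI. Their sum was highest in sub-clusters 1 (89.5 CPM, with Csf3r and Mmp8 raised) and 4 (82.8 CPM, with Mmp9 raised). Of 8 mast cell markers 1 had a UMI, Kit, at 99.1 CPM in sub-cluster 2. Of 5 eosinophil markers 3 had a UMI, with a sum of at most 8.09 CPM in any sub-cluster. The authors' class Dendritic cells (33 cells) was set apart by the migration receptor gene Ccr7, the actin-bundling gene Fscn1 and the cytokine gene Il12b, at 3716, 1068 and 868 CPM, against 43.1, 5.70 and 26.0 CPM in macrophages. The Xcr1 and Cd209a cells described above lie in the class Macrophages by the choice of cells, because only that class was sub-clustered. Levels of Xcr1 and Cd209a in the class Dendritic cells are not given here.

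The share of macrophages varied more between mice than between groups. Of all cells, macrophages made up 0.785%, 0.637%, 1.73% and 2.37% in KO-labelled mice 2, 3, 6 and 7, against 0.422%, 0.772%, 3.14% and 0.212% in WT-labelled mice 1, 4, 5 and 8. The WT-labelled group held both the highest and the lowest value. The means were 1.38% ± 0.816 and 1.14% ± 1.35 (SD, n = 4 each; exact permutation test, two-sided, p = 0.743, adjusted p = 0.971 over 3 denominators). Of non-epithelial cells the shares were 1.81%, 1.31%, 2.22% and 3.10% in KO-labelled mice, against 0.920%, 1.33%, 5.29% and 0.979% in WT-labelled mice, with means of 2.11% ± 0.760 and 2.13% ± 2.12 (exact p = 0.971). Without mouse 5, the KO-labelled minus WT-labelled difference was 1.03 percentage points (exact p = 0.114). Dead cells were removed with annexin V beads before loading, and the share of epithelial cells with 50% or more mitochondrial UMIs ran from 13.6% to 79.6% in KO-labelled and from 11.1% to 78.8% in WT-labelled mice; the part of either in these shares was not tested.

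**Figure D2:**
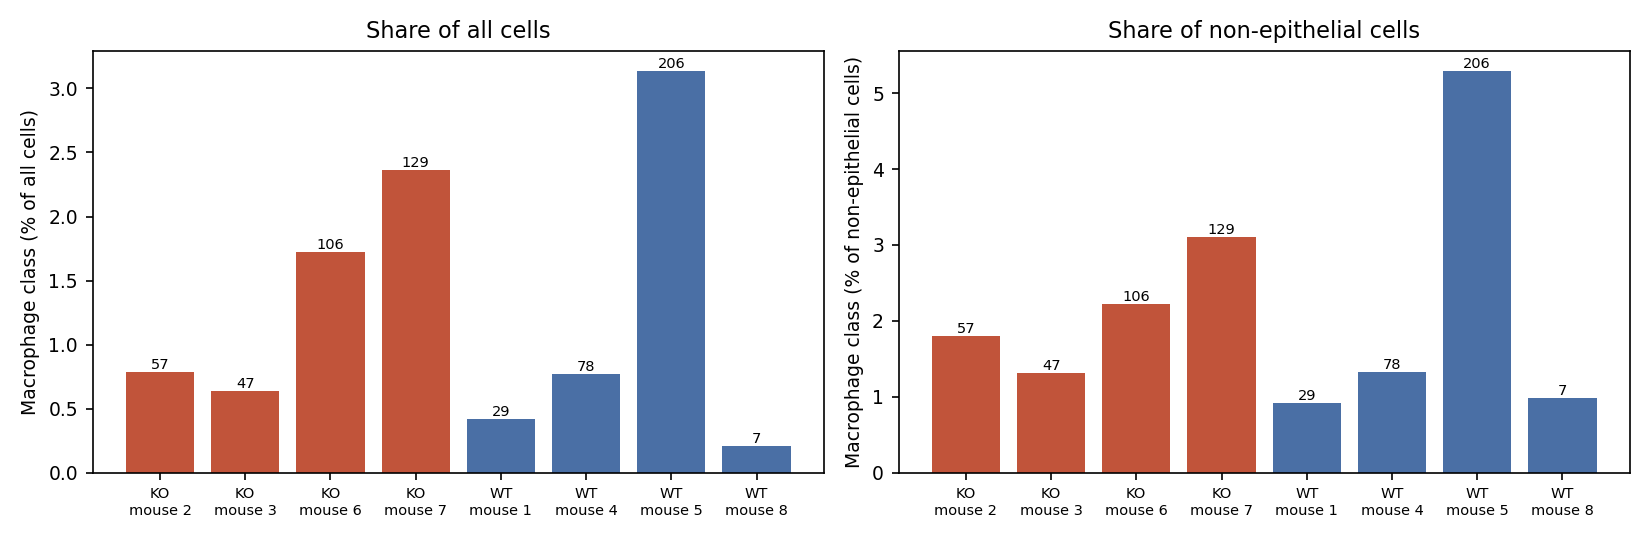
Macrophage class as a percentage of all cells (left) and of non-epithelial cells (right), 1 bar per mouse, KO-labelled mice left of WT-labelled mice, with the number of macrophages above each bar. WT-labelled mouse 5 stands at 3.14% and 5.29%, above the other mice, and the groups overlap.

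The make-up of the class also varied between mice. The monocyte-like sub-cluster 1 made up 19.3%, 6.38%, 44.3% and 29.5% of the macrophages in KO-labelled mice 2, 3, 6 and 7, against 20.7%, 24.4% and 13.1% in WT-labelled mice 1, 4 and 5. The WT-labelled values lay within the KO-labelled range (24.9% ± 16.1, n = 4, and 19.4% ± 5.74, n = 3, SD; exact permutation test, two-sided, p = 0.686, adjusted p = 0.686 over 5 sub-clusters). The Xcr1 sub-cluster 2 made up 19.1% ± 9.58 and 26.9% ± 4.11 (exact p = 0.286), the Cd209a sub-cluster 3 19.8% ± 4.75 and 15.2% ± 7.91 (exact p = 0.400), the resident macrophage-like sub-cluster 4 13.1% ± 8.40 and 8.92% ± 8.33 (exact p = 0.514) and sub-cluster 5 9.24% ± 6.86 and 11.2% ± 8.27 (exact p = 0.686). With 4 against 3 mice no exact p under 0.0571 can be reached, so these data cannot show a difference at 0.05. The C1q-rich sub-clusters 4 and 5 together ran from 8.51% to 40.4% in KO-labelled mice and from 3.45% to 36.4% in WT-labelled mice, the lowest being mouse 1 with 1 such cell.

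**Figure D3:**
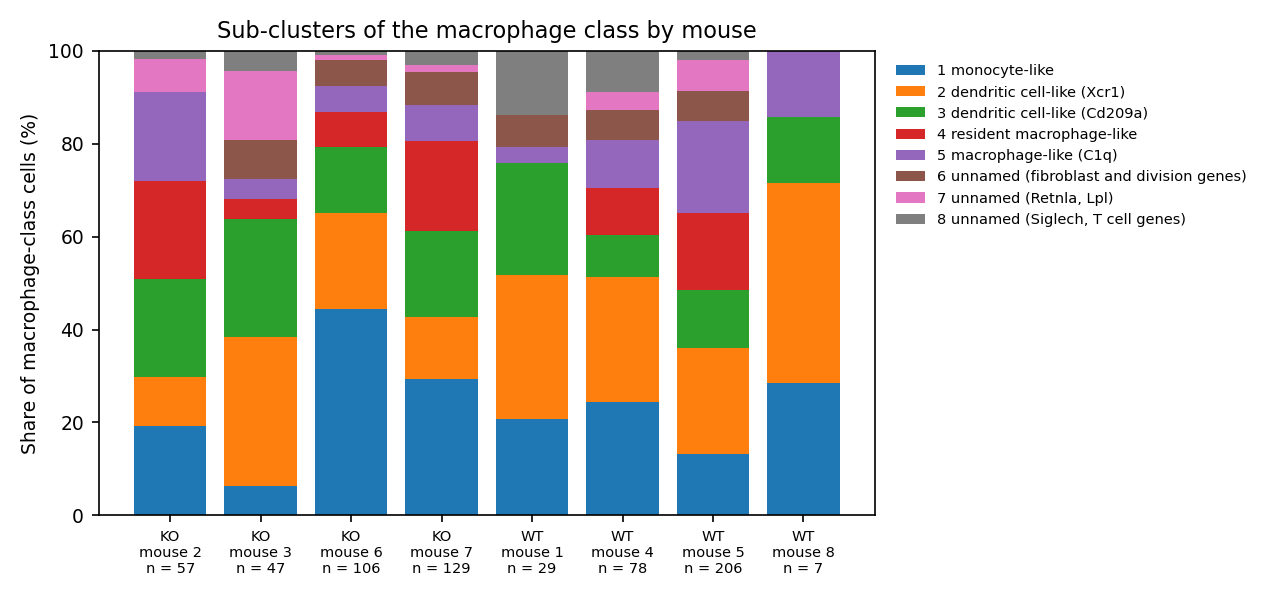
Share of each sub-cluster (colours) among the macrophages of each mouse (bars), KO-labelled mice left of WT-labelled mice, with the number of cells under each bar. Sub-cluster 1 is largest in KO-labelled mouse 6 at 44.3%, and WT-labelled mouse 8 rests on 7 cells.

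A few cells of the class carried the transcripts of plasma cells, which secrete antibody. Jchain, the joining chain of IgA, had 27 to 2189 UMIs in 11 cells and at most 9 in the other 648. The 11 cells were from WT-labelled mice only, 1 in mouse 1, 1 in mouse 4 and 9 in mouse 5. In KO-labelled mice 0 of 339 macrophages had 10 or more Jchain UMIs, which allows a share of up to 0.885%. The share of such cells was 0% in each KO-labelled mouse, against 3.45%, 1.28% and 4.37% in WT-labelled mice 1, 4 and 5 (0 ± 0, n = 4, and 3.03% ± 1.59, n = 3, SD). Among these 7 mice the groups did not overlap, and the exact permutation test gave p = 0.0571, two-sided, the smallest that 4 against 3 mice allow. WT-labelled mouse 8 had 0 such cells among its 7 macrophages. With all 8 mice the groups thus overlapped, and the difference was −2.27 percentage points (exact permutation test, two-sided, p = 0.143). The exact 95% binomial interval was 2.02% to 8.13% in mouse 5 and 0.0325% to 6.94% in mouse 4, and in KO-labelled mice it reached up to 2.82% (mouse 7) to 7.55% (mouse 3); intervals and limits cover counting error only.

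These 11 cells held 10598 of the 10813 Jchain UMIs of the class, or 98.0%, and 6.42% of all its UMIs. Their median depth was 25377 UMIs, against 5332 in the other macrophages. They carried the IgA heavy chain gene Igha in 11 of 11 cells, Mzb1, a chaperone of antibody assembly, in 9 and the plasma cell surface gene Sdc1 in 9. They also carried Cd74 and H2-Aa, genes of antigen presentation, in 11 of 11 cells, at 10179.5 and 3085 CPM, against 19870.2 and 7079 CPM in the other macrophages, 10085 and 2521 CPM in the class B cells and 3607 and 187 CPM in the authors' plasma cells. Lyz2 had a UMI in 8 of the 11, C1qa in 5, Xcr1 in 5 and Csf1r in 3. They fell in sub-clusters 2 (5 cells), 3 (2), 5 (3) and 8 (1). Plasma cells made up 0.634% to 6.73% of all cells in KO-labelled mice and 1.66% to 4.96% in WT-labelled mice. Among T cells, 1 of 3298 KO-labelled and 0 of 2136 WT-labelled cells reached 10 Jchain UMIs, and among fibroblasts 4 of 3861 and 3 of 2401. In the authors' class Dendritic cells, 2 of 18 KO-labelled cells (11.1%) and 0 of 15 WT-labelled cells did. Among endothelial cells of both groups together the share was 1.13%, against 1.67% in macrophages, so such cells were not confined to macrophages. Sub-clusters 2 and 5, which hold 8 of the 11, had 5 and 4 of 10 plasma cell markers raised. By the choice of cells none of the 11 was named a doublet by the authors, and whether a barcode held 2 cells was not tested.

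**Figure D4:**
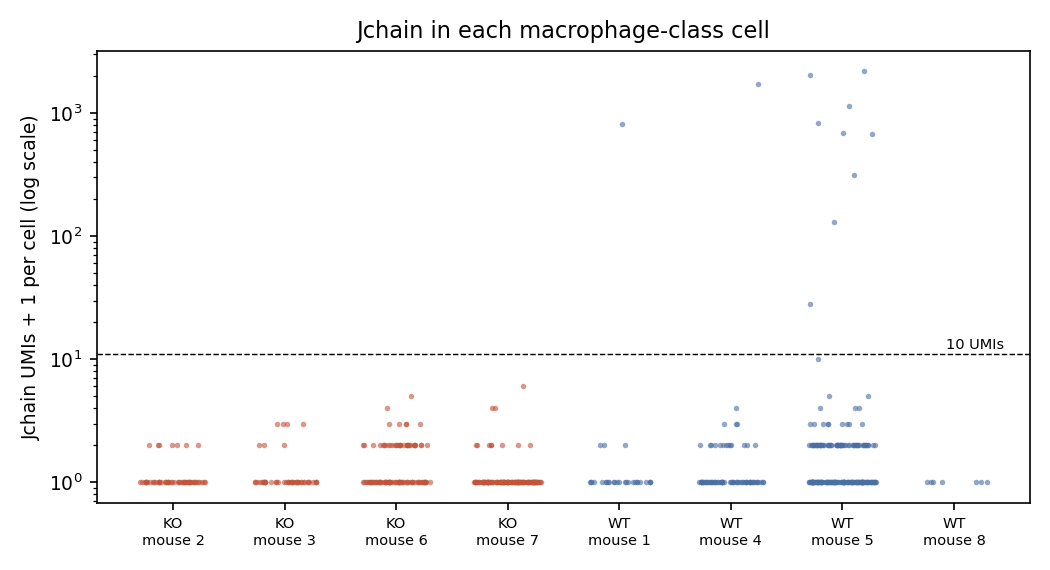
Jchain UMIs plus 1 in each macrophage (points, log scale) by mouse, KO-labelled mice left of WT-labelled mice; the dashed line marks 10 UMIs. The 11 cells above the line, with 27 to 2189 UMIs, are from WT-labelled mice 1, 4 and 5.

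Gene levels were compared between the groups in UMIs summed over the macrophages of each mouse, with edgeR's quasi-likelihood test and Benjamini-Hochberg adjustment. Fewer cells of a sub-cluster and less RNA per cell cannot be told apart in such sums. Of 5407 genes tested, 6 passed an adjusted p of 0.05, or 0.111%, all lower in KO-labelled mice: Jchain, Igha, Mzb1, the light chain genes Iglc1 and Iglv1, and Ly6d. The levels in the sentences on this comparison are CPM scaled by TMM. Jchain was at 22.0, 48.5, 65.3 and 34.0 CPM in KO-labelled mice 2, 3, 6 and 7, against 5670, 4656 and 5822 CPM in WT-labelled mice 1, 4 and 5. The log2 fold change was −6.94 ± 0.32 (SE; adjusted p = 2.81e-07, edgeR). Igha averaged 93.8 ± 63.3 and 11587 ± 10552 CPM (log2 fold change −6.88 ± 0.67, adjusted p = 0.000677), and Mzb1 7.35 ± 4.67 and 205 ± 141 CPM (−4.81 ± 0.59, adjusted p = 0.00479). Iglc1 was at 40.9, 8.82, 39.4 and 8.94 CPM in KO-labelled mice, against 65408, 20459 and 87.9 CPM in WT-labelled mice 1, 4 and 5 (adjusted p = 0.0279). Iglv1 had 0 UMIs in KO-labelled macrophages and 135 in those of the WT-labelled mice (adjusted p = 0.0400, edgeR). Of the 135 UMIs, 134 lay in 7 of the 11 Jchain-rich cells and 1 in the other macrophages. With UMIs pooled over the mice of a group and 3 counts as the KO-labelled floor, the level was at least 40.4-fold lower. That limit covers counting error only and not the spread between mice.

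Without the 11 Jchain-rich cells, edgeR called 0 of 5164 genes (0%), with 117 or 2.27% at an unadjusted p under 0.05, and in this setting no other tool was run. Jchain then had a log2 fold change of −0.57 ± 0.38, Igha −0.78 ± 0.48 and Iglc1 −0.49 ± 0.79 (adjusted p = 1 each, edgeR). The cells left out were chosen by their Jchain UMIs, and all were from WT-labelled mice. The smaller Jchain fold follows from that choice. The same cells held 14895 Igha, 17233 Iglc1, 333 Mzb1 and 134 Iglv1 UMIs. The other 648 macrophages held 616, 96, 36 and 1. The smaller folds of Igha and Iglc1 thus follow from the choice as well. For Ly6d the UMIs were 193 in these cells and 297 in the other macrophages. The comparison without these cells is a description and no test. With all cells, DESeq2 called 7 genes, the 6 and Iglc2, and 147 genes (2.72%) had an unadjusted p under 0.05 in edgeR. Leaving out KO-labelled mouse 2 gave 3 calls among 5654 genes (Igha, Jchain and Mzb1).

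Ly6d is a surface gene of lymphoid and plasmacytoid cells. Among the 4 called genes that could also be tested without the Jchain-rich cells it moved least; Mzb1 and Iglv1 did not pass the filter on low counts there. It was at 15.7, 66.1, 31.3 and 28.6 CPM in KO-labelled mice 2, 3, 6 and 7, against 556, 396 and 144 CPM in WT-labelled mice 1, 4 and 5, with no overlap (log2 fold change −3.38 ± 0.48, adjusted p = 0.0158, edgeR). Without the Jchain-rich cells the log2 fold change was −2.72 ± 0.58 and the call was lost (adjusted p = 1). The 11 Jchain-rich cells all carried Ly6d, at 744 CPM with 193 UMIs, against 78.6 CPM in the other macrophages, and plasma cells had 709 CPM. By sub-cluster Ly6d was highest in sub-cluster 8, at 1860 CPM, and that sub-cluster held 1, 2, 1 and 4 cells of KO-labelled mice 2, 3, 6 and 7, against 4, 7 and 4 of WT-labelled mice 1, 4 and 5. The plasmacytoid gene Siglech, which did not pass, was at 32.9 ± 15.3 and 203 ± 198 CPM (log2 fold change −2.47 ± 0.75, adjusted p = 1). Without sub-clusters 6 and 8, a check added after seeing the data, the call remaining was Mzb1, while most folds stayed large: Jchain had −6.50 (adjusted p = 0.0763), Igha −5.40 (0.129), Iglc1 −8.21 (0.416) and Ly6d −2.29 (0.0612, edgeR). Without both those sub-clusters and the Jchain-rich cells, Ly6d had −0.66 (adjusted p = 1).

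**Figure D5:**
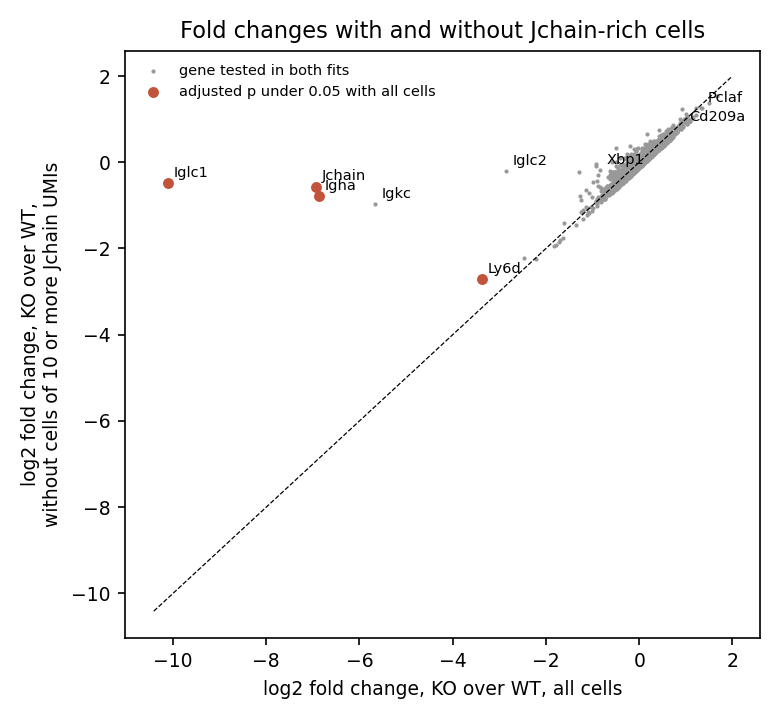
Log2 fold change of KO-labelled over WT-labelled macrophages for each gene (points), with all cells (x axis) and without the cells of 10 or more Jchain UMIs (y axis); red marks genes past the adjusted p of 0.05 with all cells that were tested in both, and the dashed line marks equal values. Without those cells Jchain, Igha and Iglc1 stand at −0.57, −0.78 and −0.49, and Ly6d at −2.72. The cells were chosen by Jchain, so its shift follows from the choice.

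No gene passed in the direction of higher levels in KO-labelled macrophages (0 of 5407, 0%). By the smallest p, Pclaf, a replication gene, came first, at 97.5, 101, 95.2 and 71.5 CPM in KO-labelled mice 2, 3, 6 and 7, against 13.9, 26.4 and 47.1 CPM in WT-labelled mice 1, 4 and 5. The groups did not overlap, as for 270 of 5407 genes (4.99%; KO-labelled above in 2.29%, below in 2.7%), and the log2 fold change was 1.34 ± 0.31 (adjusted p = 0.540, edgeR). Cd209a, the leading gene of sub-cluster 3, averaged 123 ± 22.6 and 66.8 ± 15.4 CPM without overlap (0.93 ± 0.25, adjusted p = 1), and the monocyte-like gene Ms4a4c 154 ± 35.8 and 80.5 ± 41.8 CPM with overlap (1.09 ± 0.32, adjusted p = 1). Trim27, Rgcc, Eif1ax, Rchy1, Ssna1, AI839979 and 1700123O20Rik followed, with adjusted p = 1 each. Among the lower genes that did not pass were Iglc2, Igkc, the secretory stress factor gene Xbp1 and Txndc5, and each of these had a log2 fold change of smaller size without the Jchain-rich cells.

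The macrophage genes themselves did not pass and had wide intervals. C1qa averaged 1231 ± 577 CPM in KO-labelled mice (n = 4) and 1076 ± 778 CPM in WT-labelled mice (n = 3), with a log2 fold change of 0.17 and a 95% interval from −0.98 to 1.32. Csf1r had a log2 fold change of 0.15 (−0.61 to 0.90), Cx3cr1 of −0.17 (−1.11 to 0.77), Ccr2 of 0.53 (−0.06 to 1.11) and Il1b of 0.30 (−0.19 to 0.79). The antigen presentation genes were measured more closely: H2-Aa had −0.02 (−0.39 to 0.34) and Cd74 0.02 (−0.32 to 0.37). A change of C1qa within its interval is not excluded with these mice. The intervals are not adjusted, while calls were adjusted over 5407 genes. They therefore set no size above which a change would have been called.

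By gene group, the plasma cell markers stood at a median log2 fold change of −5.23 over 8 tested genes, 4 of them called lower, against 0.0052 over all 5407 genes, and at −0.53 over 6 genes without the Jchain-rich cells. In no other group did a gene pass. The 6 plasmacytoid dendritic cell markers were all lower in KO-labelled mice (median −0.81), and so were 5 of 5 tested fibroblast markers (−0.74), whose summed level ran from 8.61 to 637 CPM in KO-labelled and from 209 to 403 CPM in WT-labelled mice, the highest being mouse 7. Without mouse 7 the fibroblast genes Col1a2, Col3a1 and Dcn passed as lower, among 6 of 4759 genes called. Of all 5407 genes 2748 were higher. Of the resident macrophage markers 8 of 9 were higher (median 0.35), of the macrophage identity genes 8 of 11 (0.15) and of the monocyte markers 4 of 6 (0.29). Dendritic cell markers were lower in 8 of 11 (−0.14). Without the Jchain-rich cells 8 of 9, 6 of 11 and 5 of 5 were higher, and 7 of 10 dendritic cell markers were lower. The 4 tested interferon response genes were higher (median 0.59), with Isg15 at 58.4 ± 46.3 CPM in KO-labelled mice and 30.7 ± 10.7 CPM in WT-labelled mice, overlapping. MHC class II genes split 5 to 5 (median 0.0027), lysosome genes 10 higher and 6 lower (0.10), inflammatory cytokine genes 5 and 3 (0.08), chemokine genes 3 and 10 (−0.11), and alternative activation genes 6 and 1 (0.47). Without the Jchain-rich cells these were, in the same order, 3 and 7, 10 and 6, 4 and 4, 3 and 9, and 6 and 1. Of the 12 genes of MAPK feedback, the pathway on which Sprouty proteins act, 4 were tested and all 4 were higher without passing (median 0.23). Without the Jchain-rich cells 3 of the 4 were higher (median 0.18). These medians rest on lists chosen with earlier results known and have no test of their own.

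The group difference in macrophages was compared with that in the other non-epithelial cells of the same mice, as the interaction of genotype label and cell set. These other cells include the authors' plasma cells (46 to 367 per mouse), which had Jchain at 66622 CPM. For antibody genes the macrophages were thus set against cells that include plasma cells. Whether a difference in these genes is particular to macrophages cannot be read from this comparison. Of 13068 genes 9 passed (0.0689%; 3.86% at an unadjusted p under 0.05), all with a lower KO-labelled level in macrophages relative to the other cells, and they were Jchain, Igha, Mzb1, Ly6d, Iglv1, Iglc1, Iglc2, Iglc3 and Ccr10, a homing receptor of IgA plasma cells. In the other non-epithelial cells, Jchain was at 3981, 9339, 18634 and 24105 CPM in KO-labelled mice 2, 3, 6 and 7, against 11028, 7583 and 24881 CPM in WT-labelled mice 1, 4 and 5, so there the groups overlapped. The difference of the log2 fold changes was −7.05 ± 0.34 (adjusted p = 5.18e-12, edgeR). Without the Jchain-rich cells 0 of 13025 genes passed (0%), with 451 or 3.46% at an unadjusted p under 0.05; no other tool was run on this comparison. On the higher side none passed with all 7 mice; Pclaf had the smallest p (2.03 ± 0.44, adjusted p = 0.157), followed by Ms4a4c (1.47 ± 0.32, adjusted p = 0.160). The count depended on single mice: it was 19 (2 higher) without mouse 1, 46 (11 higher) without mouse 5 and 49 (5 higher) without mouse 7. With no filter on low counts 9 of 44 were higher. Pclaf passed without mouse 5 (adjusted p = 0.000256, edgeR), mouse 6 (0.00841) or mouse 7 (0.0111). Without sub-clusters 6 and 8, of which sub-cluster 6 had Pclaf among its leading genes, its value was 1.00 (adjusted p = 1).

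Depth and mitochondrial share of the macrophages differed between the groups by less than the spread between mice. The median UMIs per macrophage averaged 4782 ± 1215 in KO-labelled mice (n = 4) and 5030 ± 1033 in WT-labelled mice (n = 3; exact permutation test, two-sided, p = 0.800). The mitochondrial share of UMIs averaged 5.28% ± 0.766 and 5.42% ± 0.763 (exact p = 0.857).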

How the data were processed

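UMIs of single colonic cells were measured in 8 mice. Per the labels' protocols, all samples were digested, cleared of dead cells and taken through 10x Chromium 3′ chemistry together in 1 batch. Cell Ranger 3.0.2 and mm10 are listed in the submitters' processing notes, while no source here names how cells were filtered, clustered or annotated. Raw UMI counts per gene and cell make up the matrix that the authors deposited. The deposited size factor is a ratio, which the authors computed per cell, and was used to check the order of cells; the deposited UMAP axes are a score and were not used. The table matched the matrix after sorting by sample and barcode (53080 of 53080 size factors, against 16 in file order).

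UMIs were summed per mouse and cell set. edgeR 4.0.16 (TMM, filterByExpr, quasi-likelihood; DESeq2 1.42.0 as an alternative) was run on mice with 20 or more macrophages, with Benjamini-Hochberg adjustment at 0.05; the interaction fit had the mouse as block. Scripts were checked on simulated counts. Single values were compared by exact permutation of mice. Sub-clusters came from 1000 variable genes, 15 components, 15 neighbours and Leiden resolution 0.5. A name required at least 3 markers of a list (log2 fold of 1 or more in 5% or more of the cells). Reaching this number did not always give a name: sub-clusters 6 and 8 reached it and were left unnamed. Sub-clusters 2 and 5 also reached it with plasma cell markers, and 4 with 3 of 6 B cell markers. No doublet caller was run, and cells named doublets by the authors were left out. Genes are named by 4 rules: the 25 with the largest ratio to any other class, the 10 of smallest p per direction (5 for the interaction), the 10 leading genes per sub-cluster, and members of 34 gene lists. The C1q promoters, 2 of 3 matched, come from RefSeq. The members and lists were chosen with earlier results of these data known. Nothing in the labels pairs mice across groups. P-values measure the spread between these mice.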

Additional observations from a re-analysis of the deposited data

Results flagged for a closer look

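In WT-labelled mouse 5 macrophages made up 5.29% of non-epithelial cells, against 0.920% to 1.33% in the other WT-labelled mice, a gap beyond Dixon's 95% limit for 4 samples. In 30 such checks of groups, chance passes the limit in about 1 in 20.

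The KO-labelled minus WT-labelled difference in macrophages differed from that in the other non-epithelial cells for Jchain (−7.05 on the log2 scale), Igha (−6.22), Mzb1 (−4.68) and Ly6d (−2.88), each with the interaction tested by edgeR. The other non-epithelial cells include the authors' plasma cells. For Iglv1 the fitted value was −11.6, which depends on the prior count because the KO-labelled macrophages had 0 UMIs. Without the 11 cells of 10 or more Jchain UMIs the differences were −0.45, −0.32, −1.27, −2.05 and −4.32 in the same order, and 0 genes passed. Those cells were chosen by Jchain, so its smaller value follows from the choice.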

How the results depend on the processing

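The 6 of 5407 genes called between KO-labelled and WT-labelled macrophages became 37 of 15140 with no filter on low counts, 1 of 4725 with all 8 mice and 0 of 5164 without the Jchain-rich cells. The count was 2 of 5336 with immunoglobulin and Jchain genes left out (Ly6d and Mzb1). It was 1 of 4743 without sub-clusters 6 and 8, and 0 of 4529 without both those and the Jchain-rich cells. Leaving out each mouse gave 3 to 7 calls, and Jchain, Igha and Mzb1 were called each time. The 9 of 13068 genes of the interaction became 44 of 21845 with no filter, 5 of 10881 with all 8 mice and 0 of 13025 without the Jchain-rich cells. With a mouse left out they became 9 to 49. Without the Jchain-rich cells the share differences turned to 0.0462 percentage points (of non-epithelial cells) and 0.0533 (the same without doublets). Leaving out a mouse also turned small differences: −0.0863 to 0.910 points for the share of all cells, −0.424 to 1.03 of non-epithelial cells, −0.444 to 1.07 without doublets, −812 to 295 for median UMIs, −0.518 to 0.293 points for mitochondrial UMIs, −1.01 to 11.6, −0.322 to 7.93 and −5.84 to 2.39 points for sub-clusters 1, 4 and 5. The cause was not tested. The Jchain-rich cells, chosen by their Jchain UMIs, hold 98.0% of the Jchain UMIs of the class. The number of sub-clusters was 7 at resolution 0.3 and 12 at resolution 1. No paired analysis was possible because the mouse numbers are unique and the groups share none. With 29 to 206 macrophages per mouse, intervals on C1q genes span more than a log2 unit either side or nearly so, and 7 mice allow no exact p under 0.0571.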

Other observations

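The cells that the authors named doublets of macrophages (524 cells) carried few macrophage transcripts: C1qa was at 1.08 CPM, Csf1r at 2.53 and Lyz2 at 54.5, against 1254, 418 and 8676 CPM in the macrophage class. They held the B cell gene Cd79a at 734 CPM, Cd74 at 5078 and the collagen gene Col3a1 at 5250, against 45.3, 19248 and 91.4 CPM in macrophages. Their number was 53, 61, 105 and 75 in KO-labelled mice 2, 3, 6 and 7, against 31, 155, 43 and 1 in WT-labelled mice 1, 4, 5 and 8.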
